A study of Mus musculus with 21 samples.

Results

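The Ifi200 genes are a family of interferon-inducible genes that lie side by side on mouse chromosome 1. The 10 genes described here (Ifi202b, Ifi203, Ifi204, Ifi205, Ifi206, Ifi207, Ifi208, Ifi209, Ifi211 and Ifi213) were chosen by symbol from the 55401 genes of the count table, and all 10 matched an Ensembl gene. They were put forward after results of these mice had been seen, so the p-values below, although adjusted over all genes tested, are not independent evidence for the choice.

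RNA was measured by bulk sequencing of the forebrains of 21 mice in 6 groups. The parental groups E2H, E3H and E4H (3 mice each, 9 to 10 months old) were homozygous for human APOE2, APOE3 or APOE4 in place of the mouse gene on a C57BL6 background. The 3 others (PS/E2H, PS/E3H, PS/E4H, with 4 mice each) had the same homozygous APOE alleles and also carried P301S mutant human tau from PS19, a single transgenic line kept as heterozygotes on a B6/C3H background before it was crossed to the APOE lines. They were killed at hindlimb paralysis. Tau genotype, paralysis, age at death and strain background therefore cannot be told apart wherever PS19 mice are set against parental mice. Per the study's methods the mice were male apart from 1 E4H, 1 PS/E2H and 2 PS/E4H females, so sex differed in part between groups, and with no sex given for each mouse it could not be adjusted for. Library totals ranged from 59265459 to 75932183 counts, and neuronal markers summed to between 4749 and 6046 CPM (counts scaled to a common library size after TMM normalization) in every forebrain.

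Most, but not all, proteins of the Ifi200 family (also called PYHIN or HIN-200 proteins) carry a HIN domain, which binds DNA. Most also have a pyrin domain, through which they contact other pyrin-domain proteins. Relatives such as AIM2 and human IFI16 detect DNA in the cytosol or nucleus and can lead to inflammasome assembly or to interferon production. The genes are induced by interferons and are known mainly from macrophages and other immune cells, which in the brain include microglia and the macrophages of the brain borders.

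On the GRCm38 build with the GENCODE M21 annotation, the 10 genes span 563.3 kb of chromosome 1, from position 173468485 (the end of Ifi206) to 174031810 (the start of Ifi205). Of them, 8 are on the minus strand, and Ifi208 and Ifi209 are on the plus strand. Aim2, a cytosolic DNA sensor of the same family, is next to Ifi206 outside this span, and Mndal, another family member, is within it. The annotated Mndal gene overlaps Ifi203 by 22085 bp and contains Ifi211 entirely, on the same strand, so that reads from these 3 loci can be hard to assign.

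Transcript sequences are shared within the family. Of the 50-base windows in the annotated transcripts of Ifi211, 72.8% occur unchanged in another gene, with 774 windows shared with Ifi205 and 521 with Ifi204. For Ifi209 the share was 33.8%, with 1182 windows in common with Ifi214, which had near 0 counts. Ifi206 shared 25.6%, Ifi208 20.8%, Ifi204 20.02%, Ifi205 18.6% and Ifi213 15.6% of their windows. Ifi203 shared 12.2%, mostly with the pseudogene Ifi203-ps, and Ifi207 shared 7.29%. The Ifi202b transcript shared 0%. How the deposited counts divide reads that match more than 1 gene is not given in the sources used here, and values of Ifi211 in particular are uncertain for that reason.

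**Figure D1:**
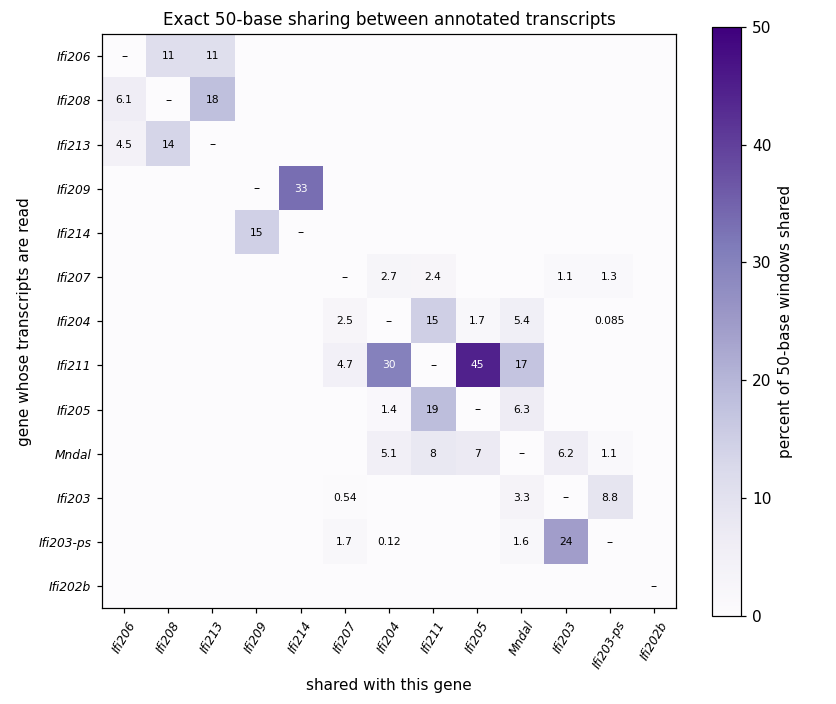
Percentage of the 50-base windows in the annotated transcripts of the gene in each row that occur unchanged in transcripts of the gene in each column, for the 10 Ifi200 genes and the neighbours Ifi214, Mndal and Ifi203-ps. Ifi206, Ifi208 and Ifi213 share sequence with each other, Ifi209 shares it with Ifi214, and Ifi211 shares 44.7% of its windows with Ifi205 and 30.1% with Ifi204.

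The promoters of the family hold a common motif. The interferon-stimulated response element is bound by interferon-activated transcription factors, and its core was searched as GAAA, any 2 bases and GAAA again on both strands of the 250 bases before the annotated start (RefSeq promoters, GRCm38.p6). The RefSeq table holds 9 of the 10 genes, all but Ifi204. The core was found in 7 of these 9 genes, counting a gene if any of its windows held it. Ifi203 has 2 windows in the table, and only 1 of them held the core. Counted by window and not by gene, the core was in 2.98% of the 32851 promoter windows of the table. In the 7 promoters the core started 35 to 134 bases before the transcription start. The 30-base stretches around it are shown because the genes that rose in PS19 mice and those that did not are both among them. Sequences are 5′ to 3′ on the strand of the gene, with the core in capitals, and Ifi209 is shown with its nearest match.

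Ifi207: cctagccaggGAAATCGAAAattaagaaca
Ifi206: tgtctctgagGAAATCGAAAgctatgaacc
Ifi208: cgtctctgagGAAATCGAAAgctatgaacc
Ifi213: cgtctctgagGAAATCGAAAgctatgaacc
Ifi203: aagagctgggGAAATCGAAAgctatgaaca
Ifi205: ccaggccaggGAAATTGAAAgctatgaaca
Ifi211: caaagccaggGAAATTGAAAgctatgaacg
Ifi209: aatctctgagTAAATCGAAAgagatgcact

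Against the core of Ifi207, counted from 1 at its 5′ end, Ifi205 and Ifi211 carry C6T and Ifi209 carries G1T, which removes it from the searched motif. The promoter windows themselves were near-copies in places. Ifi206 and Ifi208 matched at 99.6% of aligned bases, Ifi206 and Ifi213 at 98.6%, Ifi205 and Ifi211 at 93.4% and Ifi207 and Ifi211 at 87.8%. A second motif, the gamma-activated site TTCNNNGAA (both strands), was found among these genes only in Ifi202b, and in 7.02% of the windows of the table. Most of the Ifi207 window (chr1:173741832-173742059, minus strand, the 228 of its 250 bases that lie outside annotated transcripts, so that the bases nearest the start are left off) and the whole Ifi209 window (chr1:173630609-173630858, plus strand), from the same RefSeq table, are printed for the genes that rose in PS/E4H mice with and without the core, with the core or its nearest match in capitals.

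Ifi207: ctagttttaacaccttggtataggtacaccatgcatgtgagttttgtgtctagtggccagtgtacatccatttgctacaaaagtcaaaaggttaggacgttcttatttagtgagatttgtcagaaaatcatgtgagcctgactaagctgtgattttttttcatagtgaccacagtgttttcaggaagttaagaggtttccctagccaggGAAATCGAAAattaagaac
Ifi209: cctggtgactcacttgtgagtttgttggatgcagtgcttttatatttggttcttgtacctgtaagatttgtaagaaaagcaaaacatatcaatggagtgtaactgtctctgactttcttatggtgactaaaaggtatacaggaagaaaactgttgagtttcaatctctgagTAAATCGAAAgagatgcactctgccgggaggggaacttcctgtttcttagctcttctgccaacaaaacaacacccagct

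All 10 genes were of low abundance in forebrain. On the length-scaled FPKM values that the authors deposited, the median over 21 mice was highest for Ifi211 (0.504 FPKM), followed by Ifi204 (0.430), Ifi207 (0.282), Ifi203 (0.250) and Ifi209 (0.179). Ifi206 (0.0741 FPKM) and Ifi213 (0.0427) were lower still with Ifi205 between them, and the medians of Ifi202b and Ifi208 were 0. Of the 210 values in the count table, 38 were 0, and the median of the others was 43 counts. After a filter on low counts, 9 of the 10 genes could be tested in the fit of all 21 mice, all but Ifi202b. A gene counted as called where the adjusted p (Benjamini-Hochberg, over all genes tested) was under 0.05 and the change was 2-fold or more.

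**Figure D2:**
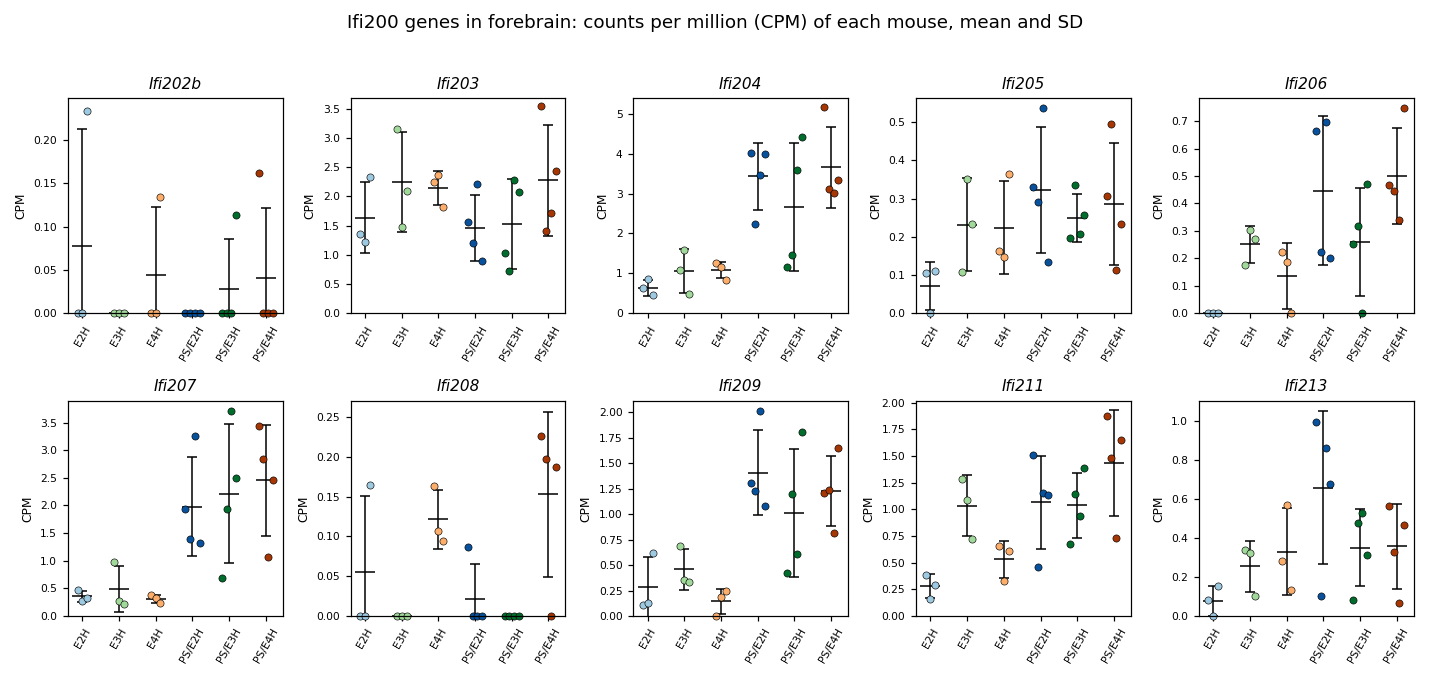
CPM of each of the 10 Ifi200 genes in each of the 21 mice, by group, with points for mice and bars for the mean and SD (3 parental or 4 PS19 mice per group; SD bars that would pass below 0 end at 0). Ifi204, Ifi207 and Ifi209 sit higher in most PS19 mice than in parental mice, Ifi203 does not, and Ifi202b and Ifi208 are at 0 in 17 and 13 of 21 mice.

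Mice with the tau transgene were compared with their parental line to ask how the family differs between paralyzed PS19 mice and mice without the transgene. Averaged over the 3 APOE lines, 5 of the 9 genes tested were higher in PS19 mice (Ifi204, Ifi206, Ifi207, Ifi209 and Ifi211) and 0 were lower, where 2.42% of the 22863 genes tested were called higher. By line, 3 of 8 genes tested were called higher in PS/E2H mice (0.451% of all genes), 0 of 8 in PS/E3H mice (1.20% of all genes) and 4 of 9 in PS/E4H mice (2.40% of all genes). In PS/E3H mice, 2 of the 8 (Ifi204 and Ifi207) had an unadjusted p under 0.05 by edgeR, as did 21.4% of all genes, and DESeq2 called those 2. Groups did not overlap, with PS19 mice higher, for 6 genes in the APOE2 line (6.67% of all genes), for 0 in the APOE3 line (10.5% of all genes) and for 5 in the APOE4 line (15.0% of all genes). The 3 comparisons by line do not share mice, but all of them enter the average. A gene at 0 in a parental group is tested only where the PS19 group is high, so these counts over tested genes are a description. In bulk tissue, more cells that express a gene cannot be told apart from more RNA per cell.

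Ifi204 codes for p204, a DNA-binding protein that is often set beside human IFI16. Its level was 0.624, 0.848 and 0.454 CPM in the E2H mice, 1.08, 1.58 and 0.493 CPM in the E3H mice, and 1.25, 1.15 and 0.847 CPM in the E4H mice. In the PS19 mice it was 4.02, 2.24, 3.48 and 3.996 CPM (PS/E2H), 1.15, 1.45, 3.60 and 4.42 CPM (PS/E3H), and 5.16, 3.11, 3.02 and 3.33 CPM (PS/E4H). Every PS/E2H and PS/E4H mouse was above its parental group, whereas 2 of the 4 PS/E3H mice were within the range of the E3H mice. Averaged over lines, Ifi204 rose by 1.84 ± 0.25 on the log2 scale (SE), with an adjusted p of 2.16e-05 by edgeR's quasi-likelihood test. By line, the log2 difference was 2.42 ± 0.31 in APOE2 mice (adjusted p = 0.0103), 1.75 ± 0.26 in APOE4 mice (adjusted p = 0.00235) and 1.33 ± 0.52 in APOE3 mice (adjusted p = 0.171), all by the same edgeR test.

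Ifi207 codes for another DNA-binding HIN protein of the cluster and is the gene with the least shared sequence among those that rose. It measured 0.464, 0.265 and 0.330 CPM in E2H mice, 0.976, 0.272 and 0.220 CPM in E3H mice, and 0.372, 0.332 and 0.229 CPM in E4H mice. The PS19 values were 1.94, 1.38, 3.25 and 1.32 CPM (PS/E2H), 0.688, 1.94, 3.71 and 2.49 CPM (PS/E3H), and 3.44, 2.83, 1.07 and 2.46 CPM (PS/E4H). Only 1 PS19 mouse, in PS/E3H, fell below a mouse of its parental line, and that line also held the highest parental value. The average difference was 2.53 ± 0.33 on the log2 scale (adjusted p = 1.18e-05, edgeR). It was 2.97 ± 0.42 in APOE4 mice (adjusted p = 0.00196, edgeR), 2.46 ± 0.41 in APOE2 mice (adjusted p = 0.0319, edgeR) and 2.15 ± 0.63 in APOE3 mice, where it did not pass (adjusted p = 0.0756, edgeR).

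Ifi209, a neighbour of Ifi213 on the opposite strand, was at 0.106, 0.124 and 0.619 CPM in E2H mice, 0.692, 0.352 and 0.337 CPM in E3H mice, and 0, 0.186 and 0.242 CPM in E4H mice. It was at 1.31, 1.23, 2.01 and 1.08 CPM in PS/E2H mice, 0.421, 1.19, 0.606 and 1.81 CPM in PS/E3H mice, and 1.21, 1.24, 0.812 and 1.65 CPM in PS/E4H mice. The PS19 and parental mice did not overlap in the APOE2 and APOE4 lines and overlapped in the APOE3 line. Ifi209 rose by 2.16 ± 0.40 on the log2 scale on average (adjusted p = 5.47e-04, edgeR) and by 3.06 ± 0.73 in APOE4 mice (adjusted p = 0.0201, edgeR). The differences in APOE2 mice, 2.28 ± 0.60 (adjusted p = 0.151, edgeR), and APOE3 mice, 1.11 ± 0.53 (adjusted p = 0.258, edgeR), did not pass.

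Ifi211 was at 0.385, 0.159 and 0.289 CPM in E2H mice, 1.29, 1.09 and 0.726 CPM in E3H mice, and 0.655, 0.332 and 0.605 CPM in E4H mice. By edgeR it was not called between parental lines, while DESeq2 called it for E2H against E3H, as given below. In PS19 mice it was at 1.51, 0.461, 1.15 and 1.13 CPM (PS/E2H), 0.674, 1.15, 0.940 and 1.38 CPM (PS/E3H), and 1.88, 1.48, 0.731 and 1.65 CPM (PS/E4H). The PS/E2H and PS/E4H mice were all above their parental mice, and the PS/E3H mice overlapped the E3H mice. Its average rise was 1.12 ± 0.24 on the log2 scale (adjusted p = 0.00195, edgeR). It was called in APOE4 mice (log2 difference 1.43 ± 0.39, adjusted p = 0.0349, edgeR), did not pass in APOE2 mice (1.91 ± 0.50, adjusted p = 0.143, edgeR), and differed by -0.01 ± 0.33 in APOE3 mice (adjusted p = 0.992, edgeR).

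Ifi206 was at 0 in all 3 E2H mice, at 0.176, 0.304 and 0.272 CPM in E3H mice, and at 0.223, 0.186 and 0 CPM in E4H mice. It was at 0.662, 0.222, 0.698 and 0.202 CPM in PS/E2H mice, 0.253, 0.319, 0 and 0.470 CPM in PS/E3H mice, and 0.469, 0.445, 0.341 and 0.747 CPM in PS/E4H mice. Every PS/E2H and PS/E4H mouse was above its parental mice, and 1 PS/E3H mouse was at 0. Set against an assumed floor of 3 counts per library, the PS/E2H mean was 9.98-fold higher than in E2H mice (adjusted p = 0.0479, edgeR). That floor was not measured, and Ifi206 entered this test only through the PS/E2H mice, so fold and call are a description. The average over lines was also called (adjusted p = 0.00355, edgeR), but its fitted fold change rests on the E2H mice at 0 and is not given. In APOE4 mice the log2 difference of 1.86 ± 0.84 did not pass (adjusted p = 0.169, edgeR), and in APOE3 mice it was 0.05 ± 0.89 (adjusted p = 0.984, edgeR).

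**Figure D3:**
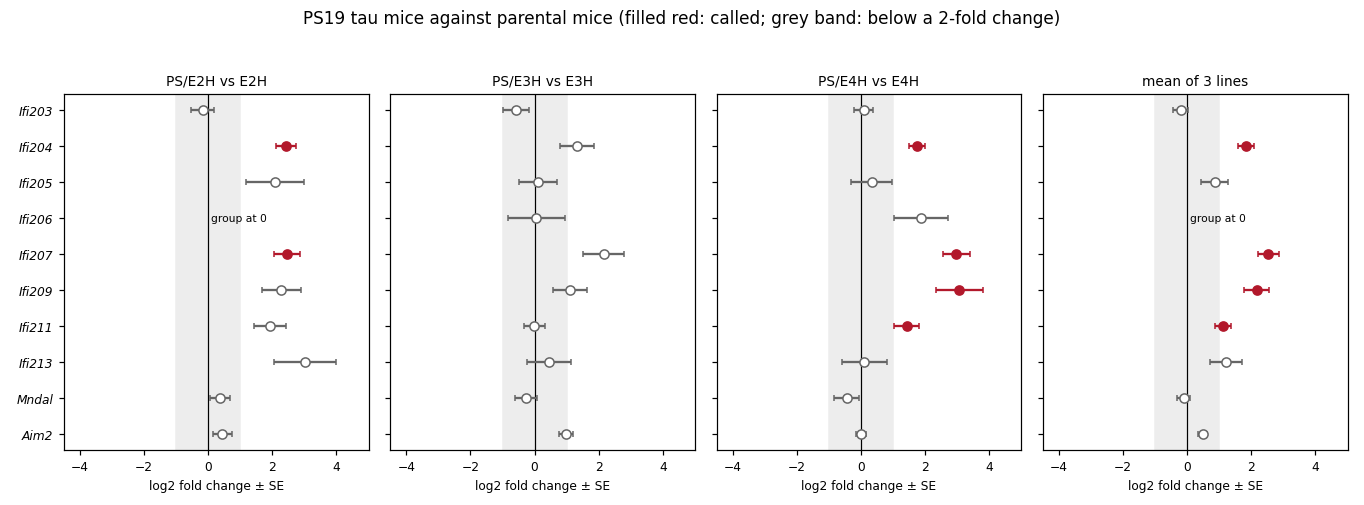
Log2 fold change ± SE of 8 Ifi200 genes and of the neighbours Mndal and Aim2 in PS19 mice against parental mice, within each APOE line and averaged over the 3 lines, with filled red points for genes called and a grey band for changes under 2-fold. Ifi206 has no point where its E2H mice were all at 0, and Ifi203 and Mndal lie within the grey band in all 4 panels.

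The other genes of the family did not pass by edgeR, by line or averaged over lines. Ifi203, which had the highest counts of the family in most parental mice, differed by -0.21 ± 0.23 on the log2 scale on average (adjusted p = 0.584, edgeR), with values of 1.22 to 3.16 CPM in parental and 0.717 to 3.54 CPM in PS19 mice. Ifi213 was at 0 to 0.571 CPM in parental and 0.0650 to 0.993 CPM in PS19 mice, a difference of 1.20 ± 0.50 on the log2 scale that missed the threshold (adjusted p = 0.0948, edgeR). Ifi213 was called without PS/E2H replicate 2 (1.32, adjusted p = 0.0499, edgeR), and in PS/E2H against E2H mice it was called by DESeq2 (adjusted p = 0.0281) but not by edgeR (3.01 ± 0.96, adjusted p = 0.256). Ifi205 was at 0 to 0.363 CPM in parental and 0.114 to 0.536 CPM in PS19 mice (0.85 ± 0.42 on the log2 scale, adjusted p = 0.167, edgeR). Ifi202b, a member that lacks a pyrin domain and is known as an inhibitor of AIM2 signalling, was detected in only 4 of 21 mice, 1 each of E2H, E4H, PS/E3H and PS/E4H, with at most 17 counts. Ifi208 was detected in 8 of 21 mice with at most 14 counts. Its counts were 0 in all 7 mice of the APOE3 line and above 0 in 6 of the 7 mice of the APOE4 line.

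Shares within the family were compared between parental and PS19 libraries. Ifi203 made up 25.6% to 49.7% of the summed counts of the 10 genes in parental mice and 9.45% to 23.1% in PS19 mice. Within single libraries, where scaling for depth plays no part, the ratio of Ifi204 to Ifi203 counts was 0.195 to 1.08 in the parental mice and 1.11 to 4.47 in the PS19 mice. The ratio of Ifi207 to Ifi203 counts was 0.106 to 0.343 in parental mice and 0.623 to 2.71 in PS19 mice. Neither of these ratios overlapped between the 9 parental and the 12 PS19 mice, but of 8 ratios computed (Ifi204, Ifi207, Ifi209 and Ifi211, each to Ifi203 and to Mndal) 5 did overlap. Ifi207 to Mndal was the other ratio without overlap (at most 0.486 in parental and at least 0.907 in PS19 mice). Ifi204 to Mndal reached 0.873 in parental mice and was as low as 0.820 in PS19 mice, and Ifi211 to Ifi203 reached 0.739 in parental mice and was as low as 0.386 in PS19 mice. Ifi209 to Ifi203 touched at 0.266, and the ratios of Ifi209 and Ifi211 to Mndal overlapped as well. The numerators were genes called higher averaged over lines in these same mice, and neither Ifi203 nor Mndal was called. That choice of genes favours a separation, so the ratios are a description and not separate evidence. The summed level of the 10 genes was 2.61 to 7.82 CPM in parental mice and 4.51 to 17.0 CPM in PS19 mice.

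The APOE2 calls were the least stable. Without E2H replicate 1 or 3 the Ifi204 call in PS/E2H mice was lost (adjusted p = 0.0720 and 0.0611, range over the 7 fits that each leave out 1 mouse 0.0104 to 0.0720, edgeR), the Ifi207 call was lost without any E2H mouse and without PS/E2H replicate 1 or 3 (adjusted p up to 0.171, edgeR), and the Ifi206 call was lost in all 7 fits (adjusted p 0.0552 to 0.172, edgeR), while Ifi209 was called without E2H replicate 3 (adjusted p = 0.0380, edgeR). In APOE4 mice the Ifi209 call was lost without E4H replicate 2 (adjusted p = 0.0729, edgeR) and the Ifi211 call in 6 of 7 such fits, all but that without PS/E4H replicate 3 (adjusted p up to 0.141, edgeR), and in APOE3 mice Ifi207 was called without PS/E3H replicate 1 (adjusted p = 0.0140, edgeR).

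Markers of immune cells moved with these genes. Among 8 microglial markers, Aif1 and C1qa rose on average over lines, and the summed level of the list was 386 to 505 CPM in parental and 556 to 1042 CPM in PS19 mice. Of 8 markers of activated microglia, 6 rose (Clec7a, Itgax, Cst7, Trem2, Tyrobp and Spp1), with sums of 108 to 151 CPM in parental and 218 to 466 CPM in PS19 mice. Of 6 markers of border and perivascular macrophages, 4 rose (Mrc1, Lyve1, F13a1 and Ms4a7), with sums of 6.63 to 13.1 CPM against 16.4 to 32.3 CPM. None of these 3 lists had a marker at 0 in every mouse of a group. Of 6 markers of monocytes and neutrophils, Ccr2 and S100a8 rose, Ly6g was at 0 in every E3H, E4H and PS/E2H mouse, and the sums were 0.883 to 8.69 CPM in parental and 1.04 to 25.2 CPM in PS19 mice. Of 6 T and B cell markers 0 were called, though 5 had a log2 difference above 0 (median 0.91). Their sums were 7.81 to 11.3 CPM in parental and 6.76 to 12.7 CPM in PS19 mice, and Cd3d was at 0 in every E3H, E4H and PS/E2H mouse. The part of these cells in the levels of the Ifi200 genes was not tested.

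The remaining lists give the setting. Of 6 astrocyte markers only Gfap rose on average, with the sum of the list at 1053 to 1354 CPM in parental and 2020 to 3904 CPM in PS19 mice. No marker was called, on average over lines, among 6 each of neurons, oligodendrocytes, endothelium and choroid plexus, whose median log2 differences were -0.15, 0.29, 0.16 and 0.45, against a median of 0.00 over all genes tested.

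Within PS/E3H, mouse 1 had the lowest Ifi204, Ifi207, Ifi209 and Ifi211 levels. It also had the lowest sums of that group for microglial markers (603 CPM, others 794 to 903 CPM), activated microglial markers (235 CPM, others 332 to 456 CPM) and border macrophage markers (16.4 CPM, others 22.3 to 32.3 CPM). It stood apart in other cell types too, with the lowest sums for astrocytes (2020 CPM, others 2874 to 3239 CPM), endothelium (155 CPM, others 191 to 219 CPM) and choroid plexus (419 CPM, others 623 to 711 CPM) and the highest for neurons (5929 CPM, others 4994 to 5153 CPM). Its activated microglial sum was still above that of every parental mouse.

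Genes of the interferon pathway were looked at beside the family. Of 30 genes of interferon receptors, signalling and response, 11 rose on average over lines and 0 fell, with a median log2 difference of 0.60. These were the signalling factor Irf8 and 10 response genes, among them Mx1, an antiviral GTPase, with a log2 difference of 1.81 ± 0.31 (adjusted p = 2.12e-04, edgeR), Ifi44 with 1.63 ± 0.22 (adjusted p = 2.19e-05, edgeR), and Usp18, which limits interferon signalling, with 1.43 ± 0.20 (adjusted p = 2.66e-05, edgeR). The summed level of the 30 genes was 409 to 471 CPM in parental mice and 462 to 641 CPM in PS19 mice, with PS/E3H mouse 1 the lowest PS19 value. By line, 12 of the 30 rose in PS/E2H, 1 (Irf8) in PS/E3H and 10 in PS/E4H mice.

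**Figure D4:**
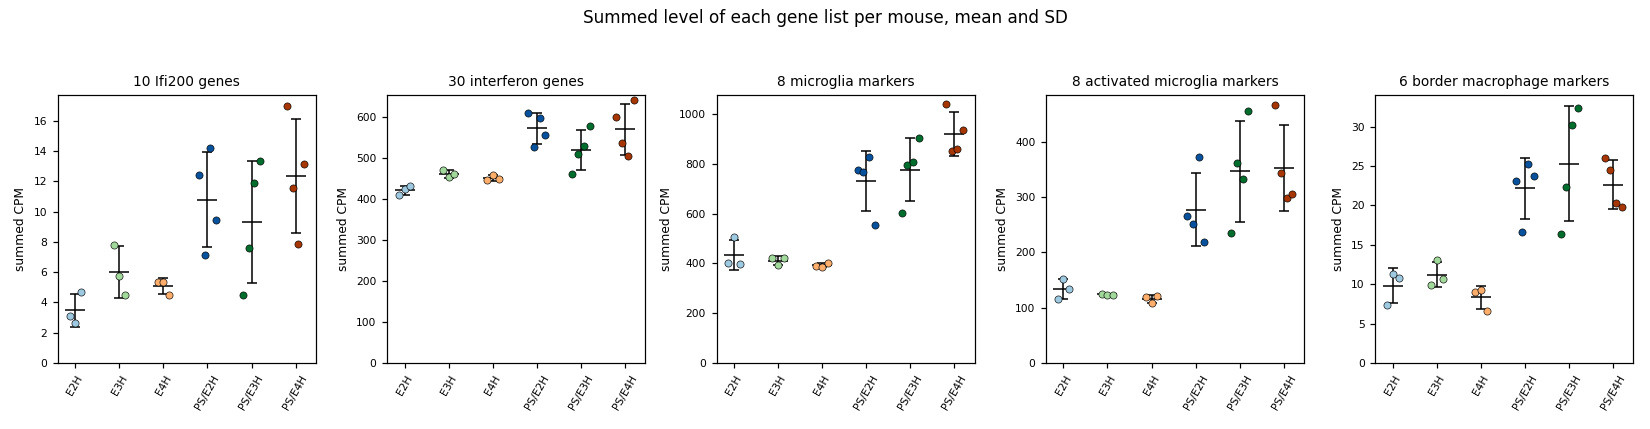
Summed CPM of the 10 Ifi200 genes, 30 interferon genes and 3 lists of microglia and macrophage markers in each mouse, by group, with the mean and SD (3 parental or 4 PS19 mice). The summed Ifi200 level was 2.61 to 7.82 CPM in parental and 4.51 to 17.0 CPM in PS19 mice, and the 2 microglial and the macrophage sums of every PS19 mouse were above those of every parental mouse.

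Of 22 genes of DNA sensing and the inflammasome tested, 4 rose on average over lines, with a median log2 difference of 0.54. They were Zbp1, a sensor of Z-form nucleic acid (1.79 ± 0.29, adjusted p = 1.38e-04, edgeR), Irf7, a regulator of type I interferon genes (1.30 ± 0.22, adjusted p = 2.66e-04, edgeR), the inflammasome receptor Naip2 (1.47 ± 0.16, adjusted p = 1.03e-06, edgeR) and the cytokine Il1b (1.48 ± 0.42, adjusted p = 0.0138, edgeR). Within lines, 2 of the 22 rose in PS/E2H mice (0.451% of all genes) and 1, Naip2, in PS/E3H mice (1.20%). In PS/E4H mice 7 rose (2.40% of all genes), among them Pycard, Casp4 and Gsdmd. Aim2 differed by 0.48 ± 0.13 on the log2 scale on average (adjusted p = 0.0122, edgeR), under the fold limit. By line the Aim2 difference was 0.98 ± 0.22 in APOE3 mice (adjusted p = 0.0314, edgeR), also under the fold limit. It was 0.44 ± 0.31 in APOE2 mice (adjusted p = 0.698, edgeR) and 0.005 ± 0.15 in APOE4 mice (adjusted p = 0.988, edgeR). Mndal, which surrounds Ifi211, differed by -0.11 ± 0.21 (adjusted p = 0.771, edgeR).

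Whether the tau-related difference depends on the APOE line was tested as the difference between the effects of 2 lines in the fit of all 21 mice. By edgeR, no Ifi200 gene was called in any of the 3 such comparisons, and 0 of 22863 genes (0%) were called in each. At an unadjusted p under 0.05 there were 3 Ifi200 genes for APOE2 against APOE3 (6.80% of all genes), 1 for APOE4 against APOE3 (2.98%) and 2 for APOE4 against APOE2 (11.4%). DESeq2 called 11, 11 and 208 genes in these comparisons, with no Ifi200 gene among them. For Ifi211 the effect was larger by 1.92 ± 0.58 on the log2 scale in APOE2 than in APOE3 mice (unadjusted p = 0.00359, adjusted p = 0.696, edgeR) and by 1.43 ± 0.57 in APOE4 than in APOE3 mice (unadjusted p = 0.0204, adjusted p = 1, edgeR). For Ifi204 the same differences were 1.09 ± 0.59 (adjusted p = 0.747, edgeR) and 0.41 ± 0.58 (adjusted p = 1, edgeR), and for Ifi207 they were 0.30 ± 0.75 and 0.81 ± 0.76. The absence of calls in PS/E3H mice is thus not shown to differ from the calls in the other lines.

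APOE lines were compared with each other, without and with the tau transgene, to ask whether the APOE allele or the line goes with the level of the family. No Ifi200 gene was called in any of these 6 comparisons by edgeR. The share of all genes called in either direction was 0.144% for E2H against E3H, 0.0477% higher and 0.0525% lower for E4H against E3H, 0.187% for E4H against E2H, 0.108% for PS/E2H against PS/E3H, 0.0197% for PS/E4H against PS/E3H and 0.109% for PS/E4H against PS/E2H. At an unadjusted p under 0.05 there were 2 Ifi200 genes for E2H against E3H (14.1% of all genes), 1 for E4H against E3H (6.67%) and 0 for E4H against E2H (12.4%), PS/E2H against PS/E3H (11.7%), PS/E4H against PS/E3H (6.51%) and PS/E4H against PS/E2H (12.3%), and DESeq2 called 1 gene, in E2H against E3H. The comparisons within a tau status share groups, and a line difference in the cluster cannot be told apart from an effect of the APOE allele, since each allele is represented by 1 line. In its survival cohorts, the paper reports that PS/E3H mice reached paralysis later than PS/E2H and PS/E4H mice. The ages of the sequenced PS19 mice are not given. Age at death may thus differ with the line among them, as sex does in part. Neither can be told apart from the line there or in the comparison of tau effects between lines.

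Among parental mice, Ifi211 was lower in every E2H mouse (0.159 to 0.385 CPM) than in any E3H mouse (0.726 to 1.29 CPM), by -1.88 ± 0.44 on the log2 scale. It did not pass by edgeR (unadjusted p = 0.00210, adjusted p = 0.218) and was called by DESeq2 (adjusted p = 0.0263). Mndal, whose annotation encloses Ifi211, showed the same separation, with 0.972 to 1.16 CPM in E2H and 1.54 to 2.40 CPM in E3H mice (-0.91 ± 0.26, adjusted p = 0.232, edgeR). Ifi206 was at 0 in all E2H mice and at 13 to 21 counts in the E3H mice, through which alone it was tested. Set against an assumed floor of 3 counts per library, the E2H level was 5.61-fold lower (adjusted p = 0.192, edgeR). In these 3 genes the groups did not overlap, as in 10.5% of all genes tested in that comparison and direction. In PS/E2H against PS/E3H mice the log2 differences were 0.04 ± 0.37 for Ifi211, 0.77 ± 0.82 for Ifi206 and -0.29 ± 0.35 for Mndal, and all 3 overlapped.

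Between E4H and E3H mice, Ifi209 (0 to 0.242 against 0.337 to 0.692 CPM, -1.66 ± 0.86 on the log2 scale, adjusted p = 0.781, edgeR) and Ifi211 (-0.96 ± 0.38, adjusted p = 0.665, edgeR) did not overlap, as in 6.37% of all genes. The Ifi204 difference between these lines was 0.05 ± 0.39 on the log2 scale and that of Ifi207 was -0.66 ± 0.62. In PS/E4H against PS/E3H mice, the log2 differences were 0.46 ± 0.40 for Ifi204, 0.15 ± 0.46 for Ifi207, 0.28 ± 0.43 for Ifi209 and 0.47 ± 0.34 for Ifi211, and adjusted p-values ranged from 0.826 to 0.997 over the 8 genes tested (edgeR). Averaged over tau status, no Ifi200 gene was called between lines (0.311% of all genes called for APOE2 against APOE3, 0.0875% for APOE4 against APOE3 and 0.276% for APOE4 against APOE2). At an unadjusted p under 0.05 there were 3, 1 and 2 Ifi200 genes in these (21.9%, 6.07% and 16.9% of all genes), and DESeq2 called 1, Ifi206 for APOE4 against APOE2 (adjusted p = 0.0337).

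By edgeR, Aim2 was the gene of the region called between lines, while DESeq2 also called Ifi211 and Ifi206 as given above. It was at 3.72, 3.74 and 3.50 CPM in E4H mice, 1.65, 1.46 and 1.23 CPM in E3H mice, and 1.62, 1.29 and 2.73 CPM in E2H mice. Every E4H mouse was above every E3H and E2H mouse. The log2 difference between E4H and E3H was 1.34 ± 0.19 (adjusted p = 0.0227, edgeR), and it lost its call in each of 6 fits that left out 1 mouse (log2 difference 1.23 to 1.44, adjusted p 0.0627 to 0.122, edgeR). In PS/E4H mice Aim2 was at 3.22 to 4.14 CPM and in PS/E3H mice at 2.27 to 3.43 CPM, a difference of 0.35 ± 0.18 (adjusted p = 0.780, edgeR).

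**Figure D5:**
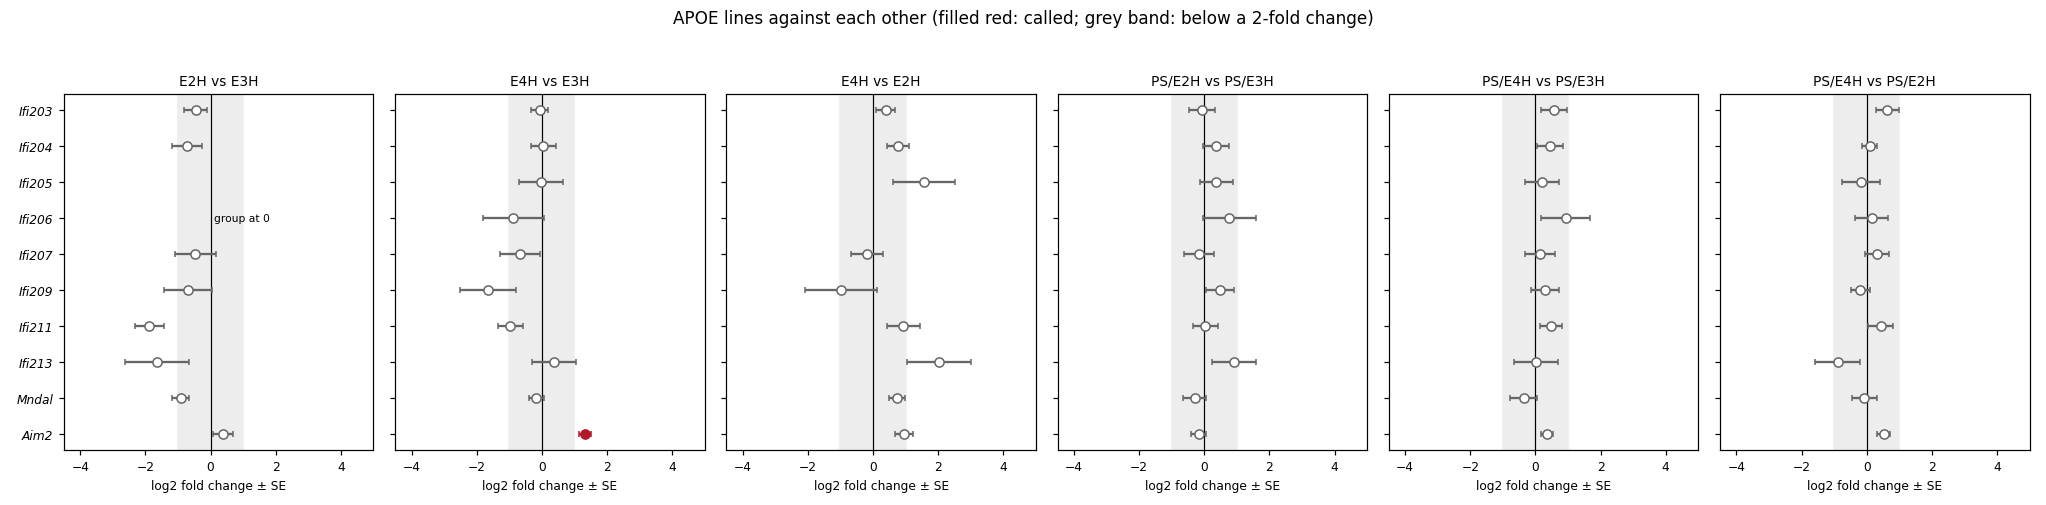
Log2 fold change ± SE of 8 Ifi200 genes, Mndal and Aim2 between APOE lines, in parental mice (3 panels at left) and in PS19 mice (3 panels at right), with filled red points for genes called and a grey band for changes under 2-fold. No Ifi200 gene is filled, Aim2 is filled in E4H against E3H mice (1.34), and Ifi206 has no point where the E2H mice were all at 0.

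Genes whose levels ran most like those of the family over the 21 mice were listed as a description, among 22838 genes outside the region (Pearson r of log2(CPM + 0.5), with all mice, groups and library depths in common). For Ifi204 they were Zbp1 (r = 0.935), Ifitm3 (0.909), which restricts virus entry, and Lgals3bp (0.908). For Ifi207 they were Tgfbr2 (r = 0.937), a receptor for TGF-beta, Cd84 (0.937), a receptor of blood cells, and Bcl3 (0.935). For Ifi209 they were Ifit1 (r = 0.917), an interferon response gene, Rac2 (0.910), a small GTPase of blood cells, and Tap1 (0.910), of antigen presentation. For Ifi211 they were Dnali1 (r = 0.844), Tgif1 (0.831) and Ptbp1 (0.830), and for Ifi203 they were Mks1 (r = 0.753), Il18bp (0.740) and Eomes (0.734). The highest r was lower for Ifi211 and Ifi203 than for the other 3 genes.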

How the data were processed

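Forebrain RNA of 21 mice was analysed from 2 tables. Per the labels and the study's methods, stranded mRNA libraries were trimmed with Cutadapt and aligned to the mouse genome with HISAT2. Assembly and quantification used StringTie and ballgown. The labels give the build as GRCm38.p5, while the methods name an Ensembl release instead. Tool versions and the step from StringTie to counts are not given in the sources used here. The authors deposited whole-number counts per gene without normalization, and FPKM values scaled for transcript length and depth. The 10 genes and all lists were chosen with earlier results of these data known. Groups and replicate numbers came from the labels, which give no sex for single mice, and 0 columns were left unmapped. Nothing in the labels names litters or batches. The tests take each mouse as independent, and a litter or batch that goes with a group could not be checked.

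Counts were fitted with edgeR 4.0.16 (R 4.3.3) with TMM scaling, filterByExpr (minimum count 10, minimum total 15) and quasi-likelihood tests, each of 9 pairs on its own mice and 7 contrasts on all 21 mice. SE is the absolute log2 fold change divided by the square root of F. A fold against a group at 0 was set against an assumed floor of 3 counts per library, which is not a measured limit. Replicates differed by more than sampling noise (chi-square per gene 19.2 to 79.9 over 27 pairs). The fits were tested on simulated data. DESeq2 1.42.0, RLE scaling, no filter, a replicate block, limma 3.58.1 on log2(FPKM + 0.1) and log2(FPKM + 1), leaving out each mouse, a fit of all 21 mice and no fold limit were the alternatives. The rule for named genes took all 10 genes, neighbours called in any comparison, fixed pathway and marker lists, and the 3 genes outside 1 Mb most like each gene with a median of at least 0.5 CPM. Sequences came from GENCODE M21 and RefSeq tables, aligned with Biopython 1.88. The result of 1 listed marker is not reported here.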

Additional observations from a re-analysis of the deposited data

Results flagged for a closer look

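Of 28 combinations of gene and PS19 group examined, 4 held 1 mouse far from the other 3. The measure was the gap to the nearest mouse as a share of the range of the group (0.856 for Ifi204 in PS/E4H). Chance gives about 1 in 20 for normally distributed values, which CPM need not be. That rate does not apply to the last 3 below, where 1 mouse with counts is set against 3 at 0. Ifi204 was at 5.16 CPM in PS/E4H replicate 1 and at 3.02 to 3.33 CPM in the others of that group. Ifi202b was at 0.114 CPM in PS/E3H replicate 4 and at 0.162 CPM in PS/E4H replicate 1, and at 0 in the others of each group. Ifi208 was at 0.0864 CPM in PS/E2H replicate 1 and at 0 in the others of that group. The last 3 values rest on 6 to 10 counts.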

How the results depend on the processing

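The number of Ifi200 genes called moved most between PS/E2H and E2H mice, where it was 3 and became 6 with DESeq2 (adding Ifi209, Ifi211 and Ifi213), 4 in the fit of all 21 mice, 1 without a filter on low counts, 1 on log2(FPKM + 0.1) and 0 on log2(FPKM + 1). The count over all genes in that comparison moved too, from 100 to 270, 208, 55, 69 and 33 in the same order. Between PS/E3H and E3H mice 0 became 2 with DESeq2 (Ifi204 and Ifi207) and 1 in the fit of all 21 mice (all genes 281, then 403 and 282). Between PS/E4H and E4H mice 4 became 2 without a filter, 3 on log2(FPKM + 0.1) and 0 on log2(FPKM + 1), and averaged over lines 5 became 3 and 0 on these FPKM scales, where adding 1 FPKM by construction lowers the fold changes of genes at these levels (all genes 645 averaged over lines, then 344 and 83). The FPKM fits also took only genes with a mean of at least 0.1 FPKM. Ifi206 was therefore not tested in them averaged over lines or between PS/E2H and E2H mice, so its missing call there is not a lost one. DESeq2 called 1 gene between E2H and E3H (Ifi211) and 1 between APOE4 and APOE2 lines averaged over tau status (Ifi206). Leaving out each mouse gave 0 to 2 calls in APOE2 mice, 0 to 1 in APOE3 mice, 2 to 4 in APOE4 mice and 5 to 6 averaged over lines, and 0 in every comparison of lines. With the replicate number as a block, 2 genes (Ifi204 and Ifi207) were called in APOE2 and 2 (the same genes) in APOE4 mice. Deviations of same-numbered mice from their group means correlated weakly (r -0.223 to 0.252 over 30 pairs, 4 above 0.1). Nothing in the labels says that the numbers pair the mice, and this check cannot exclude it. Fold changes of single genes were refitted under these alternatives only where the main edgeR fit had an unadjusted p under 0.05. They covered the Ifi200 genes except Ifi208, plus Aim2 and Mndal. Of 841 such refits, most of which left out 1 mouse, 777 stayed on the same side of the call, 51 lost it, 13 gained it and 0 changed sign. That choice of genes makes a change of sign unlikely, so the absence of one is no measure of stability for the family.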
